A study of Mus musculus with 19 samples.

Results

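Transcripts that mark the dentate gyrus were measured by RNA sequencing in 19 C57BL/6 mice, each at an age of 3 months, from a homogenate of hippocampus and cortex together. The markers were 10 named genes (Prox1, Dsp, C1ql2, Tdo2, Trpc6, Lct, Plk5, Stxbp6, Pdzd2 and Calb1), chosen by symbol from the 53801 gene IDs of the count tables. Newborn pups had received AAV1 in the cerebral ventricles. All vectors encoded GFP, alone in the controls or joined to a dipeptide repeat protein, a kind of product made from the expanded C9orf72 repeat in some patients with amyotrophic lateral sclerosis or frontotemporal dementia. The vector AAV-GFP-(PR)50 carried 50 proline-arginine units, called poly(PR) here, and AAV-GFP-(GR)100 carried 100 glycine-arginine units, called poly(GR). In the poly(PR) cohort, 4 females and 3 males with poly(PR) were compared with 4 harvest-matched AAV-GFP mice, of which 3 were female and 1 was male. In the poly(GR) cohort, 3 females and 1 male with poly(GR) were compared with their own 4 harvest-matched AAV-GFP mice, 2 of each sex. Neither the vectors' promoter nor the cells they reached is stated in the sources used here.

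The dentate gyrus is the input region of the hippocampus. Its densely packed granule cells receive fibres from the entorhinal cortex and send mossy fibres to the pyramidal cells of field CA3, and new granule cells are made there in adult mice. The homeodomain factor Prox1 sets and keeps granule cell identity, and the other markers are genes whose hippocampal signal is concentrated in the granule cell layer. Several are also transcribed elsewhere in the homogenate, Prox1 in some cortical interneurons and Calb1 in upper-layer cortical and CA1 neurons, so the markers are not equally specific. These sources are not a complete list, and regions outside the labelled tissue are taken up further on. In a bulk homogenate, fewer granule cells and less RNA per granule cell cannot be told apart.

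All 10 markers were detected in all 19 libraries and all 10 passed the filter on low counts in both cohorts. The lowest count of any marker was 24 reads, for Tdo2 in poly(PR) replicate 4. Library depth ran from 26934239 to 47648711 reads on genes, of which 3.72% to 6.34% were mitochondrial. Expression levels are given as CPM, the reads of a gene scaled to library size after TMM normalization within a cohort.

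Per length of exon, levels spanned a wide range. In the controls of the poly(PR) cohort Calb1 stood first at 31.0 ± 2.33 RPKM, that is CPM per kilobase of exon (SD, n = 4), followed by Stxbp6 at 19.7 ± 4.01 RPKM. Plk5 at 8.31 ± 1.32 RPKM and C1ql2 at 6.30 ± 1.65 RPKM did not differ beyond their spread. Pdzd2 (3.95 ± 0.797 RPKM), Prox1 (2.63 ± 0.565 RPKM) and Trpc6 (2.04 ± 0.187 RPKM) followed, the last pair within their spread. Lct (0.788 ± 0.0575 RPKM), Dsp (0.589 ± 0.0419 RPKM) and Tdo2 (0.450 ± 0.0546 RPKM) were lowest. The same markers led and closed the order in the controls of the poly(GR) cohort, from Calb1 at 30.9 ± 1.61 RPKM to Tdo2 at 0.371 ± 0.0221 RPKM (SD, n = 4).

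On GRCm38, 3 markers lie on chromosome 1: C1ql2 (ENSMUSG00000036907, 120340582 to 120343174, plus strand), Lct (ENSMUSG00000026354, 128284756 to 128328318, minus strand) and Prox1 (ENSMUSG00000010175, 190118035 to 190170714, minus strand). The others lie on 7 different chromosomes. Among them are Dsp (ENSMUSG00000054889) on chromosome 13, 38151294 to 38198577, Tdo2 (ENSMUSG00000028011) on chromosome 3, 81957090 to 81976202, and Trpc6 (ENSMUSG00000031997) on chromosome 9, 8544142 to 8680741. The counts carry no strand, and 5.17% of the exonic bases of Dsp are shared with Gm10129 on the other strand and 1.59% of those of Prox1 with Prox1os. The other 8 share none.

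The promoters printed here belong to the 2 pairs of markers that varied most closely together among the mice and to Plk5, which ran opposite to Prox1 and Dsp but not to C1ql2 and Lct, as described further on. Each window covers the 250 bases before the annotated start, from RefSeq on GRCm38.p6, and 9 of 10 markers matched a window, Prox1 with an alternative start besides. Capitals mark E-boxes (CANNTG, the motif class bound by neuronal helix-loop-helix factors such as NeuroD1, the same on both strands) and GC boxes (GGGCGG or CCGCCC, of the Sp1 class). Matches that overlap are counted separately, and the last 3 GC boxes of Plk5 form 1 run of capitals. The windows lie at chr1:190170828-190171077 on the minus strand (Prox1), chr13:38151044-38151293 on the plus strand (Dsp), chr1:120340332-120340581 on the plus strand (C1ql2), chr1:128328319-128328568 on the minus strand (Lct) and chr10:80356209-80356458 on the plus strand (Plk5).
Prox1: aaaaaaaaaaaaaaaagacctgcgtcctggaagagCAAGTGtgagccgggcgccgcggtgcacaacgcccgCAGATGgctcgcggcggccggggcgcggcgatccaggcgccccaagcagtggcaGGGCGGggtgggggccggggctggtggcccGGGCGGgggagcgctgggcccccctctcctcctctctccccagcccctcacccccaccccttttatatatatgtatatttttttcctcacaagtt
Dsp: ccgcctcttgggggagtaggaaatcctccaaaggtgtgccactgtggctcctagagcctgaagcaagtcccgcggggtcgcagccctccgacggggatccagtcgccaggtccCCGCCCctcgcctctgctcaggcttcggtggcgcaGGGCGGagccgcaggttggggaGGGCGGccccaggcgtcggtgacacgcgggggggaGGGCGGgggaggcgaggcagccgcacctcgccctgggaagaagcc
C1ql2: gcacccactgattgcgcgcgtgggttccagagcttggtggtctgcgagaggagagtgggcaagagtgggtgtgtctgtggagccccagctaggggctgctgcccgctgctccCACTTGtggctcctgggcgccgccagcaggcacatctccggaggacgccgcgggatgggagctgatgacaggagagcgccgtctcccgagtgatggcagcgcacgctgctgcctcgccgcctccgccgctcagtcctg
Lct: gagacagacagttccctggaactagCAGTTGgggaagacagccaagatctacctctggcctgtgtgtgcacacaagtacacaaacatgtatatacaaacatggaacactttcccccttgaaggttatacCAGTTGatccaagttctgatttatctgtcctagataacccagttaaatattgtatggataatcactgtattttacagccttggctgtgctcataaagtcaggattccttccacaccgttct
Plk5: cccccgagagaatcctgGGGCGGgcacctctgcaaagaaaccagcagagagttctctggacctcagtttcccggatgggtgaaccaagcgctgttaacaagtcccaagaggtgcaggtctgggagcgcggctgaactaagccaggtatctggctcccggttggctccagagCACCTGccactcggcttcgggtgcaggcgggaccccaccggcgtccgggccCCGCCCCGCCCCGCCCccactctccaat
Prox1 held 2 E-boxes and 2 GC boxes, and Dsp 0 E-boxes and 4 GC boxes. C1ql2 held 1 E-box and Lct 2, neither with a GC box, and Plk5 held 1 E-box and 4 GC boxes. Over all 10 windows of the markers, 5 held an E-box and 5 a GC box, against 66.2% and 32.7% of 32851 windows of the same length. These matches describe the letters of the windows only.

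The question put to poly(PR) was which transcripts differ in brains that received it. No dentate marker passed the threshold over all genes: 0 of 10 had an adjusted p under 0.05 in edgeR's quasi-likelihood test, against 0.0574% of 19156 genes tested. The values nevertheless lay mostly on the low side. Log2 fold changes were below 0 for 9 of 10 markers, against 48.9% of all genes, and their median was -0.30, against 0.01 over all genes. An unadjusted p under 0.05 with a lower level was found for 5 of 10 (Tdo2, Dsp, Trpc6, Pdzd2 and Stxbp6), against 7.31% of all genes. Since the markers were picked with earlier results of these libraries known, these shares describe the libraries and are not independent evidence of a direction. DESeq2 called 1 of the 10, Dsp, with adjusted p = 0.0438, where it called 2.34% of all genes.

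**Figure D1:**
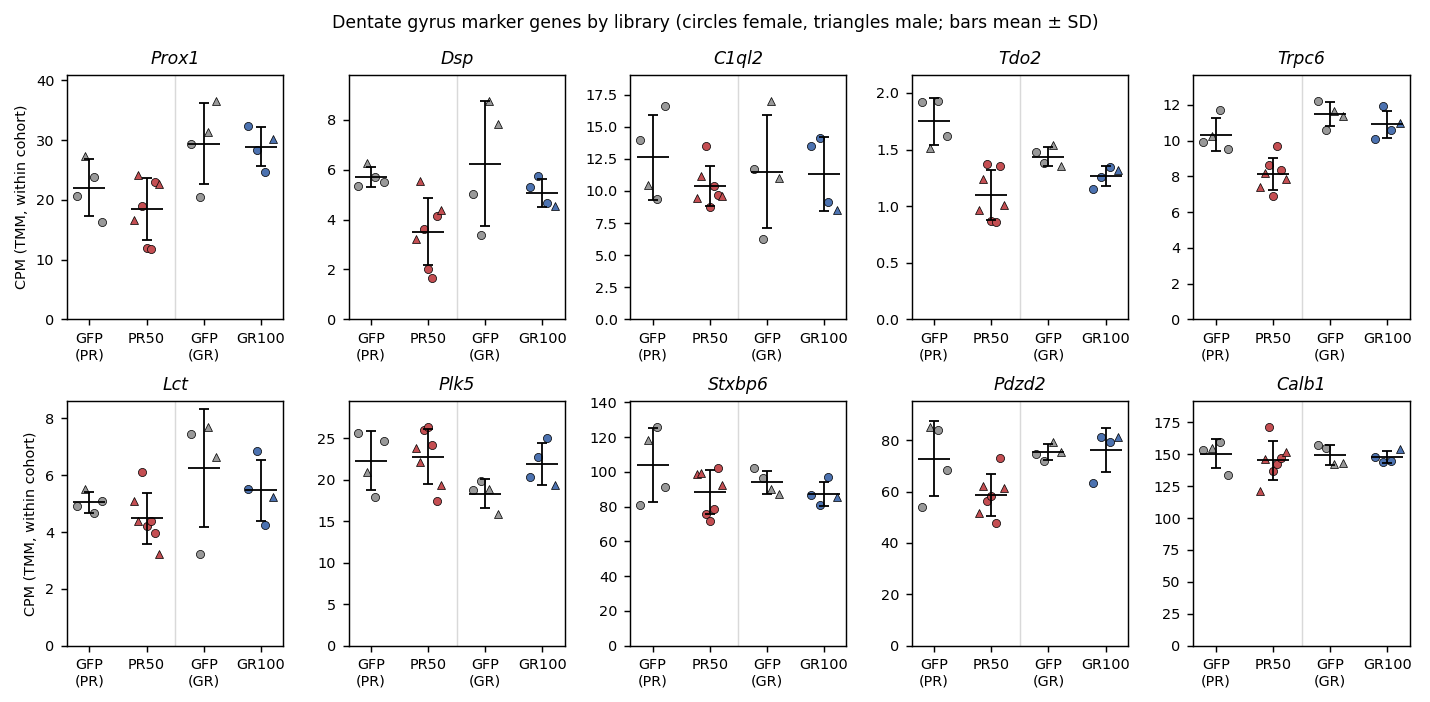
CPM (vertical axis, starting at 0) of each dentate gyrus marker by library and group, with circles for female mice, triangles for male mice and bars for mean ± SD. In poly(PR) all 7 Tdo2 libraries lie below the 4 controls, and Dsp spreads from 1.67 to 5.54 CPM against 5.32 to 6.25 CPM in controls.

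Tdo2 encodes the enzyme tryptophan dioxygenase, which opens the kynurenine route of tryptophan breakdown and in the hippocampus marks mature granule cells. Its control libraries read 1.92, 1.51, 1.93 and 1.62 CPM, and the 7 poly(PR) libraries ran from 0.860 through a median of 1.01 to 1.37 CPM. All 7 poly(PR) libraries lay below all 4 controls, which held for 1 of 10 markers and for 1.32% of all genes. The log2 fold change was -0.65 (SE 0.18, 95% interval -1.04 to -0.26), with adjusted p = 0.178. Lct, which encodes lactase, read 4.91, 5.53, 4.65 and 5.10 CPM in controls and from 3.23 through 4.37 to 6.11 CPM in poly(PR). The groups overlapped, with a log2 fold change of -0.17 (SE 0.15). Plk5, named as a member of the polo-like kinase family, was the only marker of the 10 above 0, with a log2 fold change of 0.05 (SE 0.13). Its 7 poly(PR) libraries averaged 22.7 ± 3.31 CPM (SD) and its 4 controls 22.3 ± 3.53 CPM (SD).

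Of the adhesion and scaffold genes, Dsp encodes desmoplakin, which ties intermediate filaments to desmosomes. Controls read 5.32, 6.25, 5.69 and 5.49 CPM and poly(PR) libraries from 1.67 through a median of 3.62 to 5.54 CPM. In 6 of 7 poly(PR) libraries Dsp was below every control, and replicate 2, at 5.54 CPM, lay within them. Its log2 fold change of -0.81 (SE 0.24, 95% interval -1.33 to -0.29, adjusted p = 0.200) was the largest of the 10 in size. The spread was also much wider with poly(PR), with a coefficient of variation of 38.4% against 7.11% in controls. Pdzd2, a protein with many PDZ domains, read 53.9, 85.1, 83.8 and 68.5 CPM in controls and from 47.9 through 58.4 to 73.1 CPM in poly(PR). Controls 1 and 4 lay within the range of the poly(PR) libraries, and the log2 fold change was -0.32 (SE 0.14, adjusted p = 0.305).

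Prox1 itself read 20.7, 27.4, 23.9 and 16.3 CPM in controls and from 11.8 through a median of 18.9 to 24.2 CPM in poly(PR). The groups overlapped widely: 2 of the 7 libraries, replicates 4 and 5, were below every control. The log2 fold change was -0.33 (SE 0.19, 95% interval -0.74 to 0.09, adjusted p = 0.400).

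The synaptic genes are C1ql2, whose secreted product acts at mossy fibre synapses, and Stxbp6, which encodes the SNARE-binding protein amisyn. C1ql2 read 14.0, 10.5, 9.38 and 16.6 CPM in controls and from 8.77 through 9.67 to 13.5 CPM in poly(PR) (log2 fold change -0.25, SE 0.16). Stxbp6 read 81.2, 118, 126 and 91.5 CPM in controls and from 71.7 through 92.7 to 102 CPM in poly(PR) (log2 fold change -0.28, SE 0.12, adjusted p = 0.315). Both overlapped with their controls, and in both the controls themselves spread widely, with coefficients of variation of 26.2% and 20.4%.

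The calcium-related genes are Trpc6, a calcium-permeable cation channel, and Calb1, which encodes the calcium-binding protein calbindin. Trpc6 read 9.93, 10.2, 11.7 and 9.51 CPM in controls and from 6.89 through 8.17 to 9.70 CPM in poly(PR), so that only replicate 5 reached the controls. Its log2 fold change was -0.33 (SE 0.10, 95% interval -0.55 to -0.11, adjusted p = 0.220), smaller in size than that of Dsp or Tdo2 but with a narrower interval. Calb1, the most abundant marker, read 153, 155, 160 and 134 CPM in controls and from 121 through 146 to 171 CPM in poly(PR). Its log2 fold change was -0.04 (SE 0.09, 95% interval -0.24 to 0.15).

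The poly(PR) values depended on the libraries and the fit at the margin of the threshold. Without poly(PR) replicate 6, Dsp had adjusted p = 0.0498 in edgeR's test (log2 fold change -0.95), in a fit that called 3.26% of all genes. With all 19 libraries in one fit Tdo2 had adjusted p = 0.0428 in edgeR's test (-0.67), and 0.946% of all genes were called. With female libraries alone 0 of 10 passed, as did 0% of all genes, and 2 of 10 were lower at an unadjusted p under 0.05, against 2.19% of all genes.

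**Figure D2:**
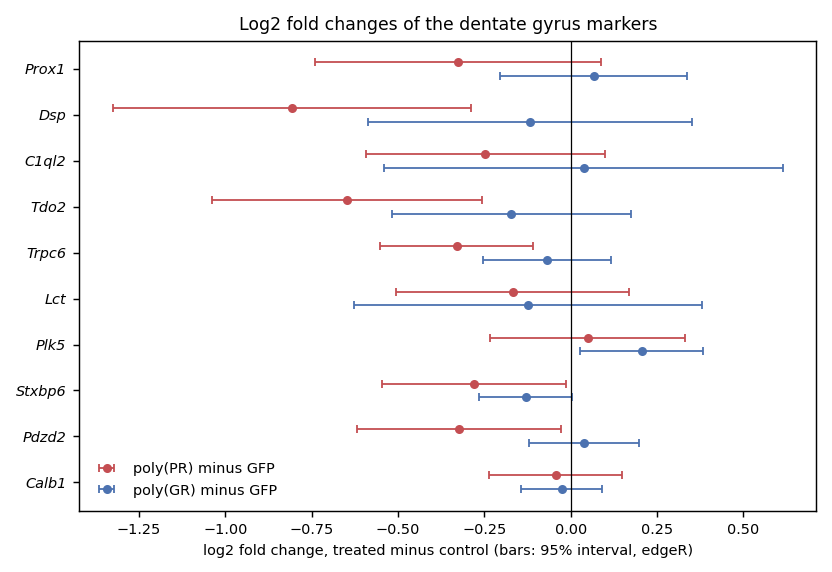
Log2 fold change (horizontal axis) of each marker for poly(PR) in red and poly(GR) in blue against its own GFP controls, with 95% intervals from edgeR. The poly(PR) intervals of Dsp, Tdo2, Trpc6, Stxbp6 and Pdzd2 lie below 0, and the poly(GR) intervals cross 0 for 9 of 10 markers, with Plk5 above.

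The low values were not shared evenly among the poly(PR) mice. Replicate 4 was below every control in 7 of 10 markers and replicates 1 and 5 in 6, against 3 in replicate 2. The share of all genes below every control in each library was not worked out. Whether these counts are particular to the markers is therefore not known. Over all genes, replicates 4 and 5 differed from replicates 6 and 7 with a chi-square of 52.9 to 91.1 per degree of freedom. Between replicates 4 and 5 it was 9.26. Averaged over the 10 markers, the log2 level relative to the control mean was -0.53 in replicate 4, -0.52 in replicate 5 and -0.38 in replicate 1, and between -0.29 and -0.13 in the other 4 libraries. The controls ran from -0.06 to 0.07. The markers were picked with earlier results of these libraries known. How often other sets of 10 genes show such a gap was not worked out. The mitochondrial share was 5.38% in replicate 4, 6.34% in replicate 5 and 3.72% to 4.98% in the other 5 poly(PR) libraries, and it was 3.75% to 5.66% in the controls. With the mitochondrial share as a covariate, an alternative chosen after seeing the data, Dsp (-0.77, adjusted p = 0.0261) and Tdo2 (-0.60, adjusted p = 0.0464) passed in edgeR's test, as did 3.9% of all genes. The part of RNA quality in the marker values was not tested otherwise.

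**Figure D3:**
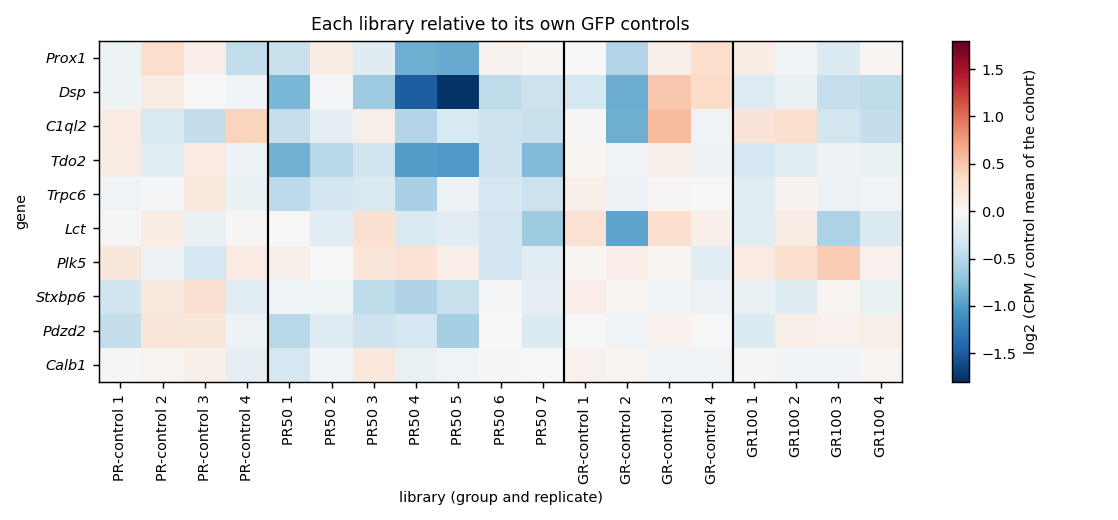
Log2 of CPM over the control mean of the cohort (colour) for each marker (rows) and each library (columns), with lines between groups. Blue runs through Dsp and Tdo2 in the PR50 libraries, deepest in replicates 4 and 5, and control 2 of the poly(GR) cohort is blue for Prox1, Dsp, C1ql2 and Lct.

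The same question was put to the poly(GR) cohort, and the difference between the cohorts is tested further on. Again 0 of 10 markers had an adjusted p under 0.05 in edgeR's test, against 0.173% of 18511 genes, and DESeq2 called 0 of 10, against 0.837%. Log2 fold changes were below 0 for 6 of 10, against 49% of all genes, with a median of -0.05 and a range from -0.17 to 0.21. At an unadjusted p under 0.05, 0 markers were lower, against 5.25% of all genes, and 1, Plk5, was higher, against 6.23%.

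Dsp read 5.01, 3.36, 8.76 and 7.84 CPM in the controls and 5.32, 5.73, 4.66 and 4.55 CPM with poly(GR). All 4 poly(GR) libraries lay between the controls, of which the male pair was high and the female pair low. The log2 fold change was -0.12 (SE 0.22, 95% interval -0.59 to 0.35). Tdo2 read 1.48, 1.38, 1.54 and 1.35 CPM in controls and 1.15, 1.26, 1.34 and 1.32 CPM with poly(GR). Every poly(GR) library was below every control, as in 2.41% of all genes, but by a narrow margin, and the log2 fold change was -0.17 (SE 0.16, 95% interval -0.52 to 0.17, adjusted p = 0.727). Counting error is large here, since Tdo2 rested on 41 to 71 reads per library in this cohort.

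Plk5 read 18.7, 19.8, 18.9 and 15.8 CPM in controls and 20.3, 22.8, 25.0 and 19.4 CPM with poly(GR). Its groups met at control 2 and poly(GR) replicate 4, and the log2 fold change was 0.21 (SE 0.08, 95% interval 0.03 to 0.38, adjusted p = 0.367). Prox1 read 29.4, 20.4, 31.3 and 36.6 CPM in controls and 32.4, 28.4, 24.7 and 30.1 CPM with poly(GR), a log2 fold change of 0.07 (SE 0.12, 95% interval -0.20 to 0.34). The intervals were narrow for Calb1 (-0.14 to 0.09), Pdzd2 (-0.12 to 0.20), Trpc6 (-0.25 to 0.12) and Stxbp6 (-0.26 to 0.005). They were wide for Lct (-0.63 to 0.38) and for C1ql2 (-0.54 to 0.61), which read 11.7, 6.23, 17.0 and 11.0 CPM in controls and 13.5, 14.1, 9.12 and 8.52 CPM with poly(GR).

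Control 2 of the poly(GR) cohort had the lowest value of the 4 controls in 6 of 10 markers, and without it the log2 fold change of C1ql2 was -0.32 and that of Prox1 -0.11. The sign of C1ql2 also turned without poly(GR) replicate 1 (-0.07) or 2 (-0.07), and that of Prox1 without poly(GR) replicate 1 (-0.01). That of Dsp turned without poly(GR) replicate 4 (0.34). Replicate 4 was the only male with poly(GR), so without it the comparison rests on the females, as in the fit of females alone. Control 2 was also the 1 GFP library of the cohort whose gene table has 4 columns. Against that control alone, the 2 poly(GR) libraries with 4-column tables gave log2 fold changes of 0.89 for C1ql2, 0.78 for Lct and 0.63 for Dsp, values with no replicate among the controls. Within the 5 libraries with 2-column tables they stood at -0.32, -0.44 and -0.47. There 0 of 10 markers were called, against 0.18% of all genes, and 2 of 10 were lower at an unadjusted p under 0.05, against 2.39%. The median of the 10 markers was -0.14 with 2-column tables (8 of 10 below 0) and 0.22 with 4-column tables (3 of 10 below 0).

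Whether the effects of the repeat proteins differed was tested as the poly(PR) effect minus the poly(GR) effect in one fit of all 19 libraries. The difference was below 0 in 10 of 10 markers, against 51.6% of 19863 genes, with a median of -0.24. By edgeR's test 0 of 10 passed an adjusted p of 0.05, as did 0% of all genes, and by DESeq2 0 of 10, against 0.0201%. At an unadjusted p under 0.05 edgeR also gave 0 of 10, against 2.14% of all genes with a lower value, and DESeq2 gave 1, Dsp, against 2.66%. The largest difference was that of Dsp (-0.69, SE 0.36, 95% interval -1.44 to 0.06, adjusted p = 0.786), then Tdo2 (-0.46, SE 0.23) and Prox1 (-0.40, SE 0.27). A difference between poly(PR) and poly(GR) in the dentate markers was therefore not detectable with these libraries, and the intervals of Dsp and Tdo2 do not bound it tightly.

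Genes of the same and neighbouring regions were read from lists beside the markers. Over all genes, 48.9% were below 0 with poly(PR) and 0.0574% were called. At an unadjusted p under 0.05, 7.31% were lower and 7.64% higher. With poly(GR) 49% were below 0 and 0.173% called, with 5.25% lower and 6.23% higher at that p. These shares belong beside the list counts of this and the next paragraph. Of 9 further genes of granule cells (C1ql3, Sema5a, Dock10, Rfx3, Maml2, Glis3, Ahcyl2, Smad3 and Tiam1), 9 had log2 fold changes below 0 with poly(PR). Their median was -0.21, 2 had an unadjusted p under 0.05 and 0 passed. Their average per library, relative to the control mean, overlapped between the groups. It ran from -0.52 to 0.12 with poly(PR) and from -0.34 to 0.28 in controls. C1ql3, a relative of C1ql2, was at -0.68 (SE 0.24, adjusted p = 0.264 in edgeR's test). How much of the signal of these 9 genes came from granule cells was not tested. With poly(GR) 4 of the 9 were below 0, with a median of 0.04. For 10 pyramidal cell genes of the CA fields the median was -0.08 with poly(PR) and 0.06 with poly(GR), with 6 and 3 of 10 below 0 and 0 called in either. At an unadjusted p under 0.05, 4 of these 10 were lower with poly(PR), and 2 of 10 were higher with poly(GR). All 6 upper-layer cortical genes were below 0 with poly(PR) (median -0.17, 0 called), of which 3 had an unadjusted p under 0.05, and 3 of 6 were below 0 with poly(GR) (median -0.00059, 0 called).

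Lists named for regions outside the labelled tissue are given for the same libraries. Whether their genes are confined to those regions was not tested. The 12 genes of striatal medium spiny neurons were above 0 in 12 of 12 with poly(PR) (median 0.47, 0 called, 9 at an unadjusted p under 0.05) and in 12 of 12 with poly(GR) (median 0.32, 5 called higher, among them Rgs9 at 0.43 and Adora2a at 0.50). Their average, relative to the control mean, ran from 0.13 to 0.81 in poly(PR) libraries against -0.07 to 0.03 in controls, and from 0.22 to 0.39 against -0.09 to 0.08 in the poly(GR) cohort. The order of the poly(PR) libraries was not the same in both lists: replicate 3 had the highest striatal average, 0.81, with a marker average of -0.14. The 6 thalamic genes were below 0 in 6 of 6 with poly(PR), 4 of them at an unadjusted p under 0.05 and 0 called, and their median of -0.42 was lower than that of the dentate markers. With poly(GR) 2 of 6 were below 0 (median 0.14, 0 called). The thalamic list averaged -0.75 in both replicates 4 and 5 of poly(PR), the libraries lowest in dentate markers, and spread from -0.84 to 0.86 among the poly(GR) controls alone. Prox1 was at -0.88 and -0.90 in those replicates, relative to the control mean. In the poly(GR) controls it was lowest in control 2 (20.4 CPM, list -0.84) and highest in control 4 (36.6 CPM, list 0.86). The poly(PR) controls differed, with the list lowest in control 3 (-0.30) and Prox1 in control 4 (16.3 CPM). Whether Prox1 follows the thalamic list was not tested. The choroid plexus list ran from -1.95 to 1.39 in poly(PR) libraries, against -0.38 to 0.20 in controls. All 8 of its genes were below 0 with poly(PR) (median -0.36, 0 called, 0 at an unadjusted p under 0.05). With poly(GR) it ran from -2.45 to -0.76, against -0.40 to 0.71 in controls. There 8 of 8 genes were below 0 (median -1.47, 4 called lower, 8 at an unadjusted p under 0.05). With the striatal average as a covariate, 9 of 10 markers were below 0 with poly(PR), with a median of -0.44. Of the 10, 4 were lower at an unadjusted p under 0.05 (6.32% of all genes) and 0 were called (0% of all genes). Dsp stood at adjusted p = 0.301 in edgeR's test. Since the striatal average did not overlap between treated libraries and controls in either cohort, such a fit cannot tell it apart from the treatment. The part of these other regions in the marker values was not tested further.

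**Figure D4:**
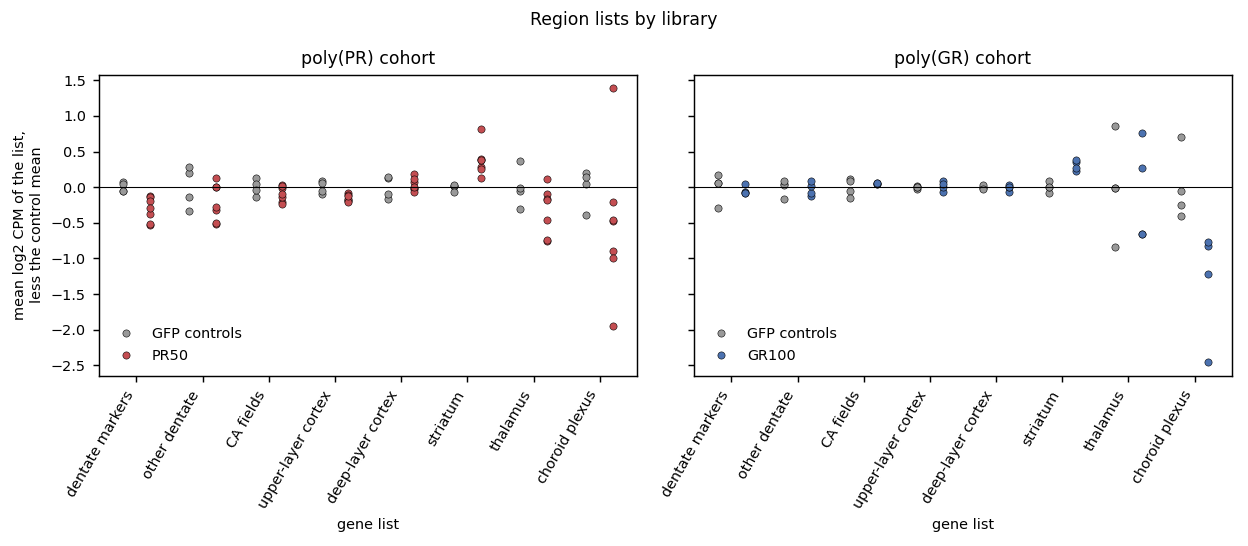
Mean log2 CPM of each gene list less the control mean (vertical axis), with 1 point per library, GFP controls in grey and treated libraries in colour. Poly(PR) libraries lie below their controls for the dentate markers (-0.53 to -0.13) and above them for the striatal list (0.13 to 0.81). For the other dentate genes they overlap with their controls (-0.52 to 0.12 against -0.34 to 0.28). Poly(GR) libraries overlap with their controls for the dentate markers (-0.09 to 0.04).

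How far the markers varied together among mice was described after the mean of each of the 4 groups had been removed, over 19 libraries. Pearson r was above 0 in 32 of 45 pairs of markers, with a median of 0.22. The highest were Prox1 with Dsp (0.87) and C1ql2 with Lct (0.73), whose promoters are printed above, and Stxbp6 with Pdzd2 stood at 0.64. For Plk5 r was below 0 in 7 of its 9 pairs, down to -0.69 with Prox1, and above 0 with C1ql2 (0.18) and Lct (0.07). Set against the mean of the other 9 markers, Prox1 (0.66), Dsp (0.65) and Tdo2 (0.64) followed it most closely, C1ql2 (0.23) and Stxbp6 (0.19) least among those above 0, and Plk5 was at -0.52. The markers share their libraries, depth and scaling, and the values are given as descriptions.

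**Figure D5:**
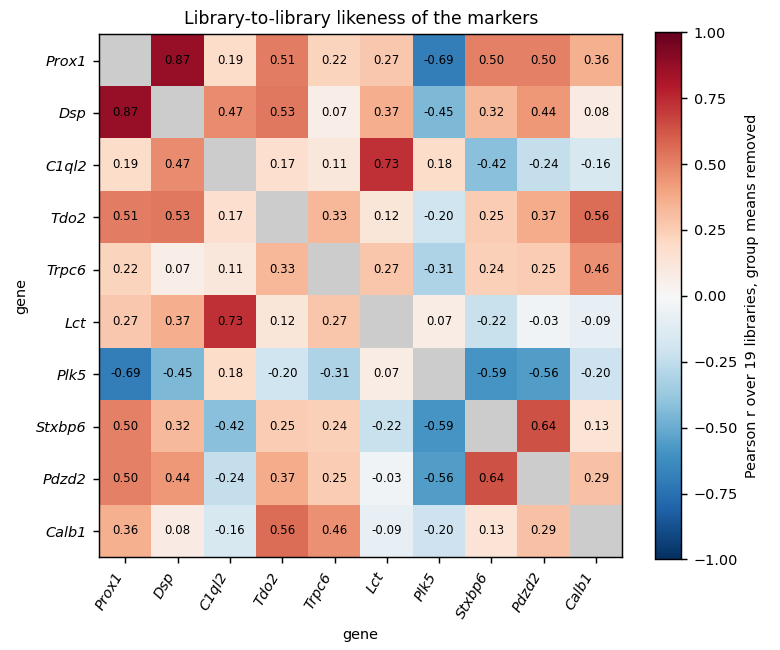
Pearson r (colour and printed value) between each pair of markers over 19 libraries after removal of the 4 group means. Prox1 and Dsp form the closest pair at 0.87, and the Plk5 row is mostly blue, down to -0.69 with Prox1.

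Among 13706 other genes with a mean log2 CPM of at least 1, the 8 with the highest r to the marker mean were Cap1 (0.88), Degs1 (0.86), Kctd8 (0.86), Pou3f4 (0.84), Vat1l (0.84), Tnfaip3 (0.83), Lypd1 (0.83) and Tacr3 (0.83). These are the top of many values. None of the 8 passed the test in either cohort, and none is on the granule cell list.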

How the data were processed

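The deposited gene tables of 19 libraries hold counts of reads per gene that the authors did not normalize. Per the submitters' processing notes, Trimmomatic 0.36 and STAR 2.5.2b were used, with mm10 and mm9 named without a role. Per the labels' protocols the libraries were paired-end, from a stranded total RNA kit. The molecule label says polyA RNA instead, so which RNA was selected is unclear. In the 14 tables with 4 columns the strands split at 49.9% to 50.1%, so the column without strand was used, and 5 tables have 2 columns. Lines naming no gene (6.57% to 13.4% of reads on no gene, 5.91% to 8.56% ambiguous) were left out. Symbols, positions and exonic lengths came from GENCODE M21 (53706 of 53801 IDs matched).

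Differential expression was tested for every gene that passed filterByExpr, each cohort with its own controls and sex in the model, in edgeR 4.0.16 (quasi-likelihood test, TMM scaling, R 4.3.3), and p-values were adjusted over all of these genes after Benjamini and Hochberg, with 0.05 as the threshold. The step was tested on simulated data. Alternatives included DESeq2 1.42.0. Likeness used log2 CPM with a prior count of 2. The design text speaks of separate mice. Replicate numbers follow accession order and pair nothing. All 39 pairs within a group differed by more than counting noise, with a chi-square of at least 5.58 per degree of freedom. The sex labels matched Xist and Ddx3y in 19 libraries. All 10 markers were named whatever their values, with up to 3 genes of smallest adjusted p from other lists and the 8 genes most alike. The members and lists were chosen with earlier results of these data known, and the printed promoters after the values were seen.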

Additional observations from a re-analysis of the deposited data

Results flagged for a closer look

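In poly(GR) replicate 1, Pdzd2 stood at 63.4 CPM against 79.2 to 81.3 CPM in the other 3 poly(GR) libraries, a gap beyond Dixon's 95% critical value. Of 40 sets of a marker and a group, 1 was flagged, where chance flags about 5%.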

How the results depend on the processing

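Counts of genes called moved widely. With poly(PR) 11 were called by edgeR, against 448 by DESeq2, 69 with no filter on low counts, 4 with no sex term, 188 with all 19 libraries in one fit, 748 with the mitochondrial share as a covariate (added after seeing the data), and 0 with female libraries only or the striatal average as a covariate. With poly(GR) 32 were called, against 155 by DESeq2, 522 with no filter, 8 with no sex term, 100 in females, 93 within 4-column tables, 1 with all 19 libraries, and 0 with either covariate. For the difference between effects 0 were called, against 4 by DESeq2 and 1 with no filter or with the mitochondrial share. Leaving out 1 library gave 0 to 617 for poly(PR) (617 without poly(PR) replicate 6), 0 to 111 for poly(GR) (111 without poly(GR) replicate 4) and 0 to 3 for the difference. The cause was not tested.

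Of the markers, 0 were called with poly(PR), against 1 by DESeq2, 1 with all 19 libraries, 2 with the mitochondrial share and 0 to 1 with 1 library left out; with poly(GR) 1 was called within 4-column tables, where 1 control library, taken to have the spread of the 2 treated ones, leaves the call without a replicate check. Signs turned for poly(GR) with no sex term (Prox1 -0.023, C1ql2 -0.031), in females (Dsp 0.34, Lct 0.075), with the striatal average (C1ql2 -0.45, Plk5 -0.16, Stxbp6 0.16, Pdzd2 -0.35, Calb1 0.042), with the mitochondrial share (C1ql2 -0.31), with all 19 libraries (C1ql2 -0.046), within 4-column tables (Dsp 0.63, Trpc6 0.088, Lct 0.78) and within 2-column tables (Prox1 -0.035, C1ql2 -0.32, Pdzd2 -0.056, Calb1 0.030). For the difference, Lct was 0.026 with no sex term and 0.0061 with the mitochondrial share, and Calb1 0.094 in females and 0.057 with the mitochondrial share. With 1 library left out, poly(PR) values ran from -0.045 to 0.13 for Plk5 and from -0.10 to 0.0039 for Calb1. Poly(GR) values ran from -0.11 to 0.21 for Prox1, -0.41 to 0.34 for Dsp, -0.32 to 0.47 for C1ql2, -0.44 to 0.15 for Lct and -0.10 to 0.0030 for Calb1. The difference ran from -0.45 to 0.068 for C1ql2, -0.17 to 0.27 for Lct and -0.070 to 0.039 for Calb1. With poly(PR), the signs of the other 8 markers held in all settings run, with Dsp between -0.95 and -0.66 and Tdo2 between -0.72 and -0.57 when 1 library was left out. Depth limits Tdo2 most, at 24 to 71 reads per library. No paired analysis was possible because the labels give no replicate numbers shared between groups.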

Other observations

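The dentate gyrus also holds newborn neurons and mossy cells, which the markers do not cover. Of 10 genes of neurogenesis and immature granule cells, 5 were below 0 with poly(PR) (median 0.09) and 3 with poly(GR) (median 0.18). By edgeR's test 0 were called in either. Over all genes, 48.9% were below 0 with poly(PR) and 49% with poly(GR). The called shares were 0.0574% and 0.173%, and all these shares belong beside the list counts of this paragraph. Neurod1, a factor needed for granule cell development, had a log2 fold change of -0.35 with poly(PR) (SE 0.08, adjusted p = 0.126 in edgeR's test). All 7 poly(PR) libraries lay below the 4 controls, as in 1.32% of all genes. Igfbpl1 went the other way with poly(PR), at 0.42 (SE 0.17, adjusted p = 0.305 in edgeR's test). The proliferation gene Mki67 stood at -0.48 with poly(GR) (SE 0.14, adjusted p = 0.236 in edgeR's test). Every poly(GR) library was below every control, as in 2.41% of all genes. Of 3 mossy cell genes 2 were above 0 in each cohort. Their average, relative to the control mean, ran from -0.10 to 0.63 with poly(PR), against -0.39 to 0.26 in controls. With poly(GR) it ran from 0.09 to 0.30, against -0.19 to 0.08 in controls. Whether these genes stand for mossy cells in this homogenate was not tested. By edgeR's test Nmb stood at 0.72 with poly(PR) (SE 0.32, adjusted p = 0.326) and Calb2 at 0.43 with poly(GR) (SE 0.13, adjusted p = 0.261). The other gene, Calcrl, was below 0 in both cohorts, at -0.20 with poly(PR) and -0.04 with poly(GR). Calb2 is also counted among the 10 genes of neurogenesis.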
